A study of Mus musculus with 18 samples.

Results

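The cytosolic ribosomal protein genes encode the proteins of the ribosome that works outside mitochondria. They were taken as the protein-coding genes whose name starts with Rpl or Rps and a digit or with Rplp, or is Rpsa, without the Rps6k kinases, at a mean of at least 1 CPM (the count scaled to library size) over all libraries. Of 92 genes with such a name 87 passed, out of 55385 genes in the count table, and all 87 were among the 18634 genes tested. The 87 hold 77 core subunit genes, 46 of the large and 31 of the small subunit, and 4 paralogs, Rpl7l1, Rpl22l1, Rpl36al and Rps27l. They also hold 5 copies of core genes annotated as protein-coding, Rpl9-ps6, Rpl10-ps3, Rpl36a-ps1, Rps18-ps5 and Rps27rt, and Rps19bp1, which encodes a binding protein and no subunit. The member just inside the limit, Rpl36a-ps1, had 5.39 CPM, and the gene just outside it, Rpl39l, had 0.822 CPM. The other names left out were Rpl3l at 0.186 CPM, Rpl9-ps1 at 0.0111 CPM, and Rpl10l and Rpl36-ps4, which had no counts. Fau and Rack1 also encode ribosome proteins but fall outside the name rule.

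Poly(A) RNA of adult mouse spleen was sequenced in 18 libraries, 6 of each of 3 genotypes with 3 females and 3 males each. Dp16 mice carry a duplication on chromosome 16 that runs from Lipi to Zbtb21 and matches a large part of human chromosome 21. Dp16_2xIFNRs mice are Dp16 mice labelled as normalized for interferon receptor dosage, so they keep the rest of the extra interval. WT mice were wild-type C57BL/6J. The samples carried no treatment, and their age label ran from 17.1 to 18 in each of Dp16 and WT and from 17.7 to 18 in Dp16_2xIFNRs under a tag of days post conception, whose unit is not interpreted here. The labels number the samples and do not say that each was a separate animal, so p-values measure the spread between these samples. Each sample also carries a code in its description, whose meaning is not interpreted here; of 12 codes 5 were shared by samples of different genotypes, 11 samples in all, and the tests below leave the code out unless it is named.

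Each ribosome joins a small subunit, which reads the mRNA, to a large subunit, which forms the peptide bond. Ribosomal protein mRNAs typically begin with a run of C and T letters, the terminal oligopyrimidine or TOP motif, through which the growth-controlling mTOR pathway sets their translation. Blood-forming tissue makes ribosomes at a high rate, and inherited loss of ribosomal protein genes in humans causes Diamond-Blackfan anaemia, a failure of red cell production. The spleen of adult mice holds lymphocytes, macrophages and, in the red pulp, blood-forming cells.

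The sequences around the transcription start are shown for 3 pairs of paralog and core gene and for 4 core genes with low p-values, because the C/T run near the start is the feature this class of genes is known for. Each is 60 bases of the RefSeq sequence on GRCm38.p6, 30 before and 30 from the start, 5′ to 3′ on the gene's strand. Its longest unbroken C/T run, or the first of several of that length, is in capitals. RefSeq lists more than 1 start for Rps27l and Rpl22, of which 1 is shown.

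Rps27, chr3:90213619-90213678, minus strand: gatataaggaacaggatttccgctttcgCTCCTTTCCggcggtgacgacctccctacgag
Rps27l, chr9:66946056-66946115, plus strand: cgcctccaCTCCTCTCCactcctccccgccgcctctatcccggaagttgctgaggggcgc
Rpl22, chr4:152325696-152325755, plus strand: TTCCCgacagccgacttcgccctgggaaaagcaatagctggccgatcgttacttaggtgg
Rpl22l1, chr3:28805478-28805537, plus strand: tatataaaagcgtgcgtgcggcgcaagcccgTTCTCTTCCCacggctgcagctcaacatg
Rpl36a, chrX:134585624-134585683, plus strand: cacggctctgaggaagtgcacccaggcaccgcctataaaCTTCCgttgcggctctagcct
Rpl36al, chr12:69184038-69184097, minus strand: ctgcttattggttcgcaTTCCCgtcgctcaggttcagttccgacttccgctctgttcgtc
Rps2, chr17:24720033-24720092, plus strand: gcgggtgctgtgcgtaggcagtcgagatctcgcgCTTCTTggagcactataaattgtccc
Rpl7a, chr2:26910777-26910836, plus strand: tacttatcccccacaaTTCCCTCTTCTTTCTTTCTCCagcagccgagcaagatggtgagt
Rps12, chr10:23787180-23787239, minus strand: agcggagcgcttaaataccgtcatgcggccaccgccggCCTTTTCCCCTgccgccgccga
Rpl41, chr10:128549139-128549198, minus strand: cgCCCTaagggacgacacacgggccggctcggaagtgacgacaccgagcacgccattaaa

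The longest run had 9 letters in both Rps27 and Rps27l, 10 in Rpl22l1 against 5 in Rpl22, and 5 in both Rpl36al and Rpl36a. Rpl7a had the longest run of those shown, 21 letters, and Rpl41 the shortest, 4 letters. The marked runs of Rps27l, Rpl22, Rpl36al and Rpl41 began 22, 30, 13 and 28 bases before the start shown and ended before it. Such runs are not part of an mRNA that begins there. Rpl36al holds another run of the same length, CTTCC, after the start. Rps27l holds another of the same length, CTCCTCCCC, which also ended before the start. The runs of Rps27 and Rpl7a began 2 and 14 bases before the start and crossed it. Those of Rpl22l1, Rpl36a, Rps2 and Rps12 began at bases 2, 10, 5 and 9 from it. RefSeq promoters were at hand for 63 members. A C/T run of at least 7 letters lay in this window in 39 of the 63 (61.9%), against 3933 of 12385 tested genes with a promoter (31.8%). The letters CCGGAAG on either strand, a form of the binding sequence of ETS family factors such as GABPA, stood in the 300-base promoter of 24 of the 63 members (38.1%), against 2003 of the 12385 genes (16.2%). Of members called higher in either genotype 19 of 34 (55.9%) held it, against 5 of the 29 called in neither (17.2%). For the C/T run of at least 7 letters it was 23 of the 34 (67.6%) and 16 of the 29 (55.2%). All tested genes were not split in this way, so these shares have no background. Rps27l and Rpl41 have CCGGAAG on the forward strand and Rps2 on the reverse strand. These matches are descriptions of letters, no test was made of them, and a match is not a binding site.

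Per length, in the authors' RPKM values, which scale counts to gene length and library size, the highest mean levels over all libraries were 4391 RPKM for Rplp1, 2663 RPKM for Rps29 and 2300.0 RPKM for Rps12. Rplp1 is a protein of the P stalk, the arm of the large subunit that recruits elongation factors, while Rps29 and Rps12 belong to the small subunit. The lowest were 8.97 RPKM for Rpl10-ps3, 12.0 RPKM for Rpl36a-ps1 and 19.1 RPKM for Rps19bp1. None of the 3 lowest is a core subunit gene.

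Together the 87 genes took 8.17% ± 0.469 of counts in Dp16 libraries, 8.36% ± 0.916 in Dp16_2xIFNRs libraries and 7.78% ± 0.245 in WT libraries (mean ± SD, n = 6 each). The range was 7.75% to 8.89% in Dp16, 6.95% to 9.36% in Dp16_2xIFNRs and 7.41% to 8.07% in WT, so that all 3 ranges overlapped. To see the members apart from a few abundant genes, the median over the 87 genes of the log2 level minus the WT mean was taken in each library, with levels as CPM scaled by the trimmed mean of M-values (TMM). It was 0.11, 0.14, 0.39, 0.28, 0.10 and 0.12 in Dp16 replicates 1 to 6. In Dp16_2xIFNRs replicates 1 to 6 it was -0.11, 0.02, 0.31, 0.24, 0.48 and 0.36. WT libraries lay between -0.05 and 0.05. All 6 Dp16 libraries stood above every WT library, whereas Dp16_2xIFNRs replicates 1 and 2 fell below or inside the WT range. In Dp16_2xIFNRs replicate 1 only 16 of the 87 genes were above their WT mean, and in replicates 3 and 5 all 87 were.

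**Figure D1:**
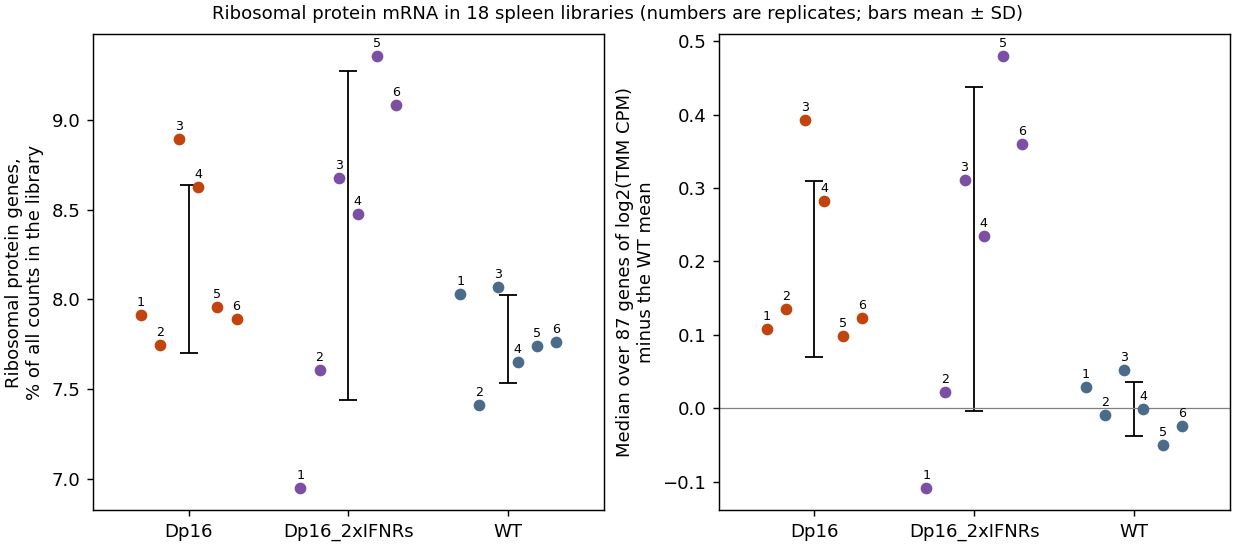
The left panel plots the share of counts on the 87 ribosomal protein genes in each library (percent), and the right panel the median over the genes of log2 TMM-scaled CPM minus the WT mean; points are libraries with their replicate number and bars are mean ± SD of 6. Dp16 and Dp16_2xIFNRs libraries spread more widely than the WT libraries, whose right-hand values lie between -0.05 and 0.05.

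The members also varied more between libraries of the Dp16 genotypes. Their median coefficient of variation was 9.59% in Dp16, 15.7% in Dp16_2xIFNRs and 4.31% in WT, and 83 and 87 of the 87 genes had a larger one in Dp16 and Dp16_2xIFNRs than in WT. Among the 6096 tested genes at a mean log2 CPM of at least 5 it was 10.1%, 11.8% and 9.23%, with 53.8% and 62.1% of genes above their WT value. The members share their libraries, so these counts describe 18 libraries and were not tested.

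In Dp16 spleens 23 of the 87 genes were higher than in WT (26.4%) and 0 lower, at an adjusted p below 0.05 in edgeR's quasi-likelihood test with Benjamini-Hochberg adjustment over all genes. Of all 18634 genes 16.6% were called higher and 13.2% lower in the same comparison. The changes were small: the median log2 fold change was 0.19, against -0.01 over all genes, the range ran from -0.11 for Rps27 to 0.72 for Rpl10-ps3, and 86 of 87 were positive. In Dp16_2xIFNRs spleens 40 were higher than in WT (45.98%) and 0 lower, beside 17.3% of all genes higher and 14.2% lower. There the median was 0.23 and the range ran from -0.01 for Rps27rt to 0.79 for Rps27l. The 21 genes called in both comparisons are 91.3% of the Dp16 list and 52.5% of the Dp16_2xIFNRs list, and both comparisons share the WT libraries. No member changed by more than 2-fold. All 6 Dp16 libraries were above all 6 WT libraries for 29 of the 87 genes, and all 6 Dp16_2xIFNRs libraries were for 4, Rpl7a, Rpl31, Rps2 and Rps27l. The same separation was seen in 8.48% of all tested genes in Dp16 and 6.83% in Dp16_2xIFNRs.

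These counts moved with the libraries. In Dp16 the number called higher was 11 without Dp16 replicate 3, 12 without Dp16 replicate 4, 13 without WT replicate 5 and 15 without WT replicate 1 or 6. In Dp16_2xIFNRs it was 76, 65, 19, 25, 14 and 16 without Dp16_2xIFNRs replicates 1 to 6 in turn, 20 without WT replicate 5 and 24 without WT replicate 2 or 6. None was called lower in any of the 18 omissions. With upper quartile scaling 8 and 14 were called higher in Dp16 and Dp16_2xIFNRs, and in a fit of log2(RPKM + 0.1) 7 and 11, with member medians of 0.07 and 0.10 where the medians of all genes were -0.13 and -0.12. The shares of all genes called in these omissions and fits are not given here. The counts therefore do not show whether other genes gained or lost calls alike. Of the called genes 11 of 23 in Dp16 and 13 of 40 in Dp16_2xIFNRs were called in every omission. Of the genes given singly below, the calls of Rpl36a, Rplp1, Rplp0 and Rpl36al in Dp16 were lost in 12, 10, 4 and 3 of the 18 omissions, with adjusted p up to 0.140, 0.141, 0.0733 and 0.0574 (edgeR). In Dp16_2xIFNRs the calls of Rpl11 and Rplp2 were lost in 10 each, Rpl39 in 9, Rplp1 and Rpl10-ps3 in 7 each, Rpl36a in 4 and Rpl22 in 3, with adjusted p up to 0.138 for Rplp2 (edgeR). Those of Rps26 and Rps27a were lost only without Dp16_2xIFNRs replicate 5, at adjusted p of 0.0523 and 0.05001 (edgeR). Rpl9-ps6 in Dp16 was called in 10 of the 18 omissions and Rpl35a in Dp16_2xIFNRs in 9. Of genes listed below, Rpl26 was called in 10 omissions in Dp16 and 11 in Dp16_2xIFNRs, and Rpl27 in 16 and 14. Rpl31 was called in 16 in Dp16 and Rpl15 in 16 in Dp16_2xIFNRs.

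**Figure D2:**
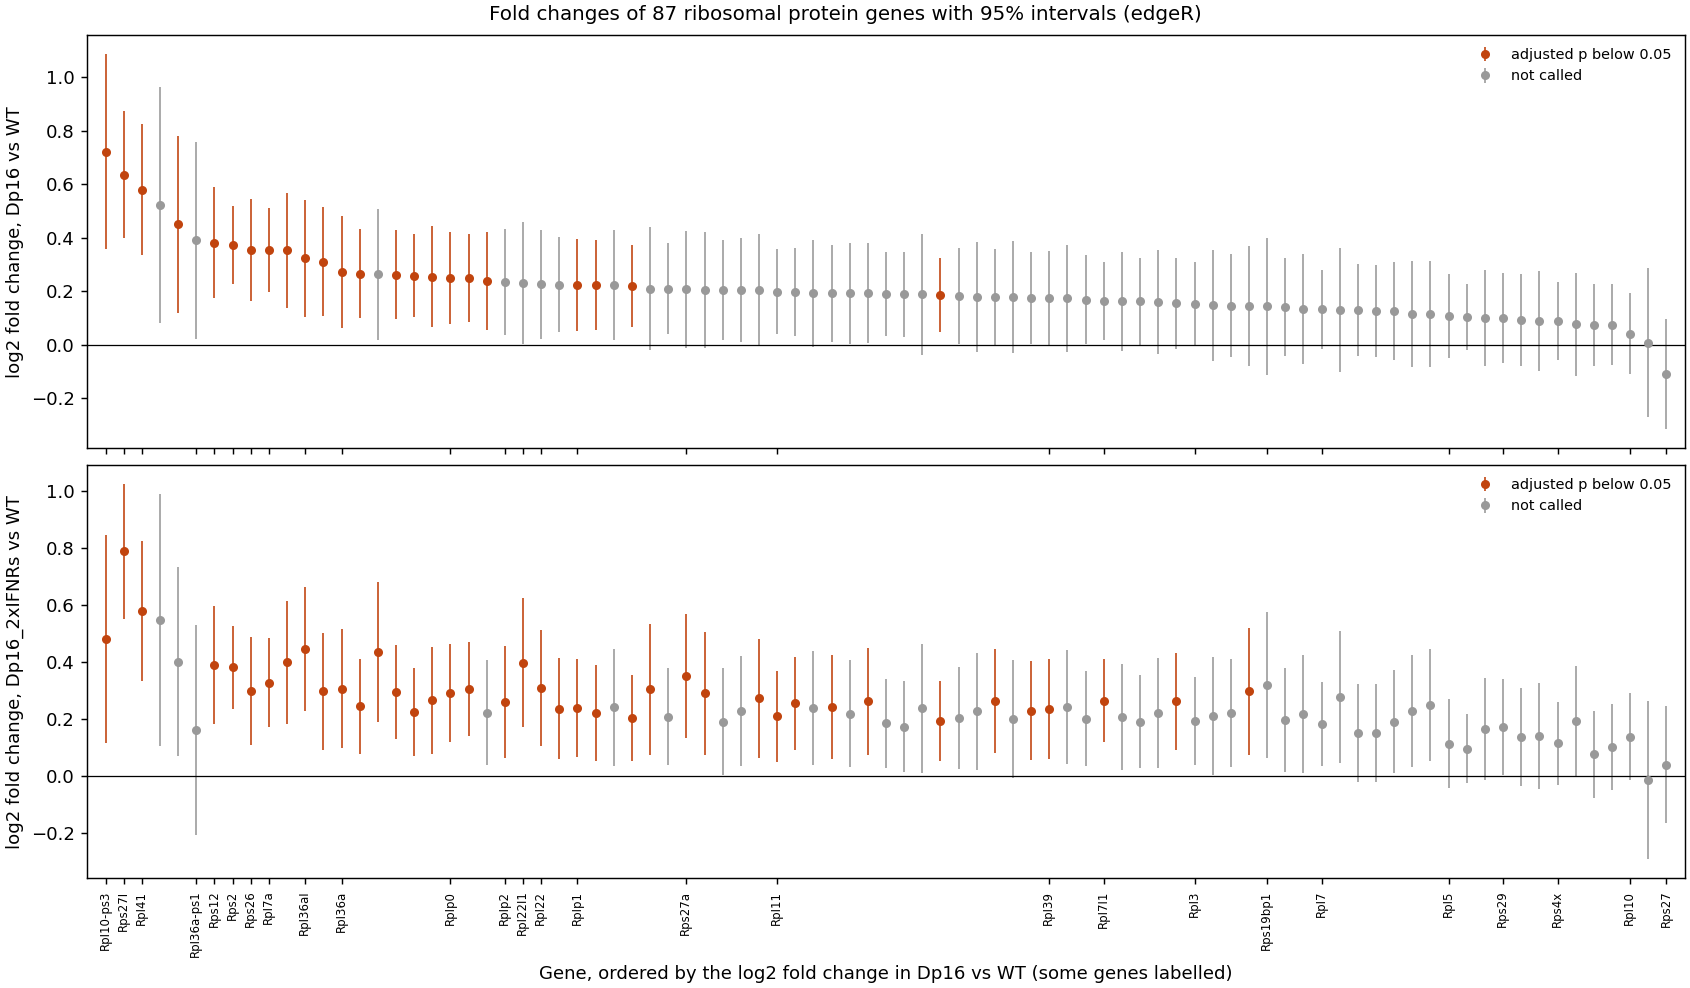
Points are log2 fold changes of the 87 genes with 95% intervals from edgeR, Dp16 against WT above and Dp16_2xIFNRs against WT below, in the order of the Dp16 values, with some of the genes labelled; red marks an adjusted p below 0.05. Nearly all points lie above 0 and below 0.5, with Rps27 at the low end of the upper panel at -0.11; with a gene length offset the medians of 0.19 and 0.23 became 0.03 and 0.03, and Rps27 and Rpl10 were called lower in Dp16.

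Gene length moved with these results. Ribosomal protein genes are short: the median length of their gene models, implied by the authors' RPKM values, was 946 bases, against 3498 bases in the 5881 other protein-coding genes at a mean log2 CPM of at least 5. In Dp16 against WT, the 47 ribosomal protein genes of up to 1000 bases had 16 called higher (34.04%) and a median log2 fold change of 0.21, and other genes of that length had 142 of 198 (71.7%) and a median of 0.40. In Dp16_2xIFNRs against WT the 47 had 26 called higher (55.3%) and a median of 0.24, and the other short genes had 153 of 198 (77.3%) and a median of 0.46. The share of ribosomal protein genes called higher was below that of other short genes in both genotypes, and the difference was not tested. Other genes over 4000 bases were called higher in 15.2% and lower in 38.8% in Dp16, with a median of -0.16.

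Within the ribosomal protein genes the median fold change hardly varied with length, whereas the share called higher fell. Their median in Dp16 was 0.21 up to 1000 bases, 0.18 in the 25 genes from there to 1500 bases, 0.18 in the 9 up to 2500 bases and 0.16 in the 5 up to 4000 bases, and Rps15a, the longest model, had 0.17. Over the same classes the other genes had 0.40, 0.28, 0.17, 0.03 and, over 4000 bases, -0.16. Ribosomal protein genes called higher in Dp16 were 16 of 47, 7 of 25, 0 of 9, 0 of 5 and 0 of 1 in these classes. In Dp16_2xIFNRs they were 26, 11, 2, 1 and 0. The longer classes hold few of these genes, and the fall was not tested. Across libraries both kinds of gene moved together. In each Dp16 and Dp16_2xIFNRs library the members' median against the WT mean, given above, was below that of other short genes, which was 0.30 to 0.52 in Dp16, 0.13 to 0.64 in Dp16_2xIFNRs and -0.08 to 0.13 in WT. Dp16_2xIFNRs replicate 1, lowest for the members, was also the lowest of its genotype for short genes.

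**Figure D3:**
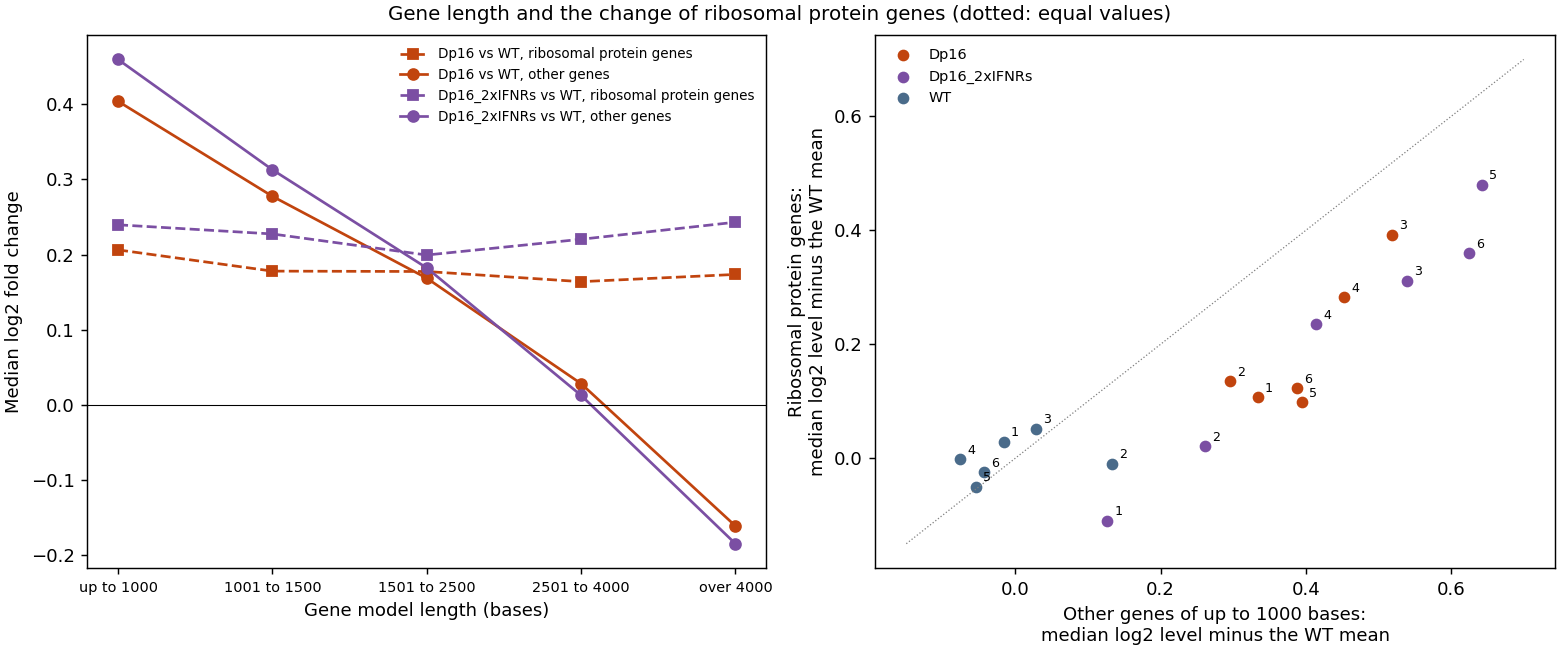
The left panel plots the median log2 fold change over gene model length classes (bases) for ribosomal protein genes (dashed) and other protein-coding genes (solid), each genotype against WT. The right panel plots, for each library, the median log2 level minus the WT mean of ribosomal protein genes against that of other genes of up to 1000 bases (dotted line, equal values). The dashed lines stay between 0.16 and 0.24 and the solid lines fall across 0 with length, and every Dp16 and Dp16_2xIFNRs point lies below the dotted line.

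A fit with each library's trend over gene length as an offset was added after seeing the data. It gave 7 members called higher and 2 lower in Dp16, with a median of 0.03. Of all 18634 genes it called 3116 higher and 1634 lower in Dp16. The 7 were Rpl10-ps3, Rpl41, Rpl7a, Rps12, Rps2, Rps26 and Rps27l, and the 2 were Rps27 (log2 fold change -0.27, adjusted p = 0.00527, edgeR) and Rpl10 (-0.15, adjusted p = 0.0310, edgeR). Over all alternatives their adjusted p in Dp16 ran from 0.00527 to 0.648 for Rps27 and from 0.0310 to 1 for Rpl10. In Dp16_2xIFNRs the offset gave 9 higher, Rpl15, Rpl18, Rpl36al, Rpl41, Rpl7l1, Rps15a, Rps2, Rps20 and Rps27l, and 0 lower, with a median of 0.03. Of all 18634 genes 3179 were called higher and 1561 lower there. Rpl18, Rps15a and Rps20 were not called in the fit without the offset. Their gene models have 3413, 5395 and 3706 bases, and the log2 fold change of Rps15a went from 0.24 to 0.44 with the offset. Other genes of up to 1000 bases still had medians of 0.22 in Dp16 and 0.23 in Dp16_2xIFNRs with the offset. Whether the length trend comes from the spleens or from the libraries was not tested. Over 33 alternatives, this offset included, Rpl41, Rps2 and Rps27l kept their calls in both genotypes, Rpl10-ps3, Rpl7a, Rps12 and Rps26 in Dp16, and Rpl36al in Dp16_2xIFNRs.

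Rps27l encodes a near-identical partner of the small subunit protein of Rps27 and is reported as a p53 target in human cells. Its lowest, median and highest levels were 38.1, 46.3 and 50.7 TMM-scaled CPM in Dp16, 40.6, 48.4 and 61.1 in Dp16_2xIFNRs and 22.2, 29.1 and 36.4 in WT. Every library of both Dp16 genotypes was above every WT library. The log2 fold change was 0.64 ± 0.114 in Dp16 (SE, adjusted p = 0.000315, edgeR) and 0.79 ± 0.114 in Dp16_2xIFNRs (adjusted p = 5.44e-05, edgeR), or 1.55-fold and 1.73-fold. With the length offset these were 0.47 (adjusted p = 0.000856, edgeR) and 0.57 (adjusted p = 0.000154, edgeR). Over all alternatives the adjusted p of Rps27l ran from 6.30e-06 to 0.00216 in Dp16 and from 9.70e-09 to 0.000892 in Dp16_2xIFNRs.

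Rps27 itself had 825, 965 and 1113 TMM-scaled CPM in Dp16, 800.4, 1119 and 1359 in Dp16_2xIFNRs and 919, 1049 and 1121 in WT (lowest, median and highest). The 3 groups overlapped throughout. Its log2 fold change was -0.11 in Dp16 (adjusted p = 0.453, edgeR) and 0.04 in Dp16_2xIFNRs (adjusted p = 0.816, edgeR), and in Dp16_2xIFNRs its sign turned negative in 5 alternatives. The gene model of Rps27l has 580 bases and that of Rps27 462 bases.

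The level of Rps27l as a percentage of Rps27 was 4.73% ± 0.714 in Dp16, 4.72% ± 0.470 in Dp16_2xIFNRs and 2.83% ± 0.666 in WT (mean ± SD of the CPM ratio, n = 6 each). The ranges were 3.82% to 5.76%, 4.15% to 5.43% and 1.98% to 3.96%, so that Dp16 met the WT range only at WT replicate 2 and Dp16_2xIFNRs not at all. An exact two-sided permutation test of the log2 ratio gave p = 0.00433 for Dp16 against WT and p = 0.00216, the smallest this test can give, for Dp16_2xIFNRs against WT. Adjusted over 12 tests of 4 pairs in 3 comparisons both became 0.0260 by the exact permutation test. Between Dp16_2xIFNRs and Dp16 the exact permutation p was 0.968. WT replicate 2 also had the highest summed erythroid markers of the WT libraries, 21266 TMM-scaled CPM.

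The other pairs did not pass after adjustment. Rpl36al, an autosomal gene whose protein is nearly that of the X-linked Rpl36a, had 83.8, 90.9 and 99.3 TMM-scaled CPM in Dp16, 73.8, 103 and 123 in Dp16_2xIFNRs and 68.9, 72.4 and 77.7 in WT. All Dp16 libraries were above WT, and Dp16_2xIFNRs overlapped WT at its low end. Rpl36al rose by 0.32 ± 0.105 in Dp16 (adjusted p = 0.0241, edgeR) and 0.45 ± 0.106 in Dp16_2xIFNRs (adjusted p = 0.00262, edgeR) on the log2 scale. Rpl36a rose by 0.27 (adjusted p = 0.0470, edgeR) and 0.31 (adjusted p = 0.0237, edgeR), and the ratio of the pair moved by 0.05 and 0.13 on the log2 scale (exact permutation p = 0.400 and 0.0476, adjusted 0.601 and 0.143). Rpl36al had 0.17 with the length offset in Dp16 (adjusted p = 0.136, edgeR) and 0.26 in Dp16_2xIFNRs (adjusted p = 0.0237, edgeR), and Rpl36a, at 0.11 and 0.10, was called in neither.

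Rpl22l1 is a paralog known to rise in mice that lack Rpl22, an RNA-binding large subunit protein needed for T cell development. Rpl22l1 had 42.1, 50.5 and 60.6 TMM-scaled CPM in Dp16, 43.5, 58.7 and 66.8 in Dp16_2xIFNRs and 38.5, 42.0 and 50.9 in WT, with overlap between all groups. Rpl22l1 rose in Dp16_2xIFNRs, by 0.40 ± 0.109 (adjusted p = 0.00790, edgeR), and its log2 fold change was 0.23 in Dp16 (adjusted p = 0.122, edgeR). Rpl22 had 0.31 in Dp16_2xIFNRs (adjusted p = 0.0199, edgeR) and 0.23 in Dp16 (adjusted p = 0.0898, edgeR), and the log2 ratio of the pair differed from WT by 0.09 in Dp16_2xIFNRs and 0.01 in Dp16 (exact permutation p = 0.208 and 0.926). Neither gene was called in Dp16_2xIFNRs with the length offset, at 0.18 for Rpl22l1 (adjusted p = 0.114, edgeR) and 0.22 for Rpl22 (adjusted p = 0.0677, edgeR).

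Rpl7l1 encodes a relative of the large subunit protein Rpl7. It had 93.2, 96.9 and 99.9 TMM-scaled CPM in Dp16, 89.7, 103 and 125 in Dp16_2xIFNRs and 82.6, 86.9 and 90.9 in WT, and the Dp16 libraries were all above WT. Its log2 fold change was 0.26 ± 0.071 in Dp16_2xIFNRs (adjusted p = 0.00649, edgeR) and 0.16 in Dp16 (adjusted p = 0.0870, edgeR). Rpl7 had 0.18 in Dp16_2xIFNRs and 0.13 in Dp16, with neither called. Counted by paralog, 2 of 4 were called higher in Dp16 and 4 of 4 in Dp16_2xIFNRs, beside 16.6% and 17.3% of all genes.

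**Figure D4:**
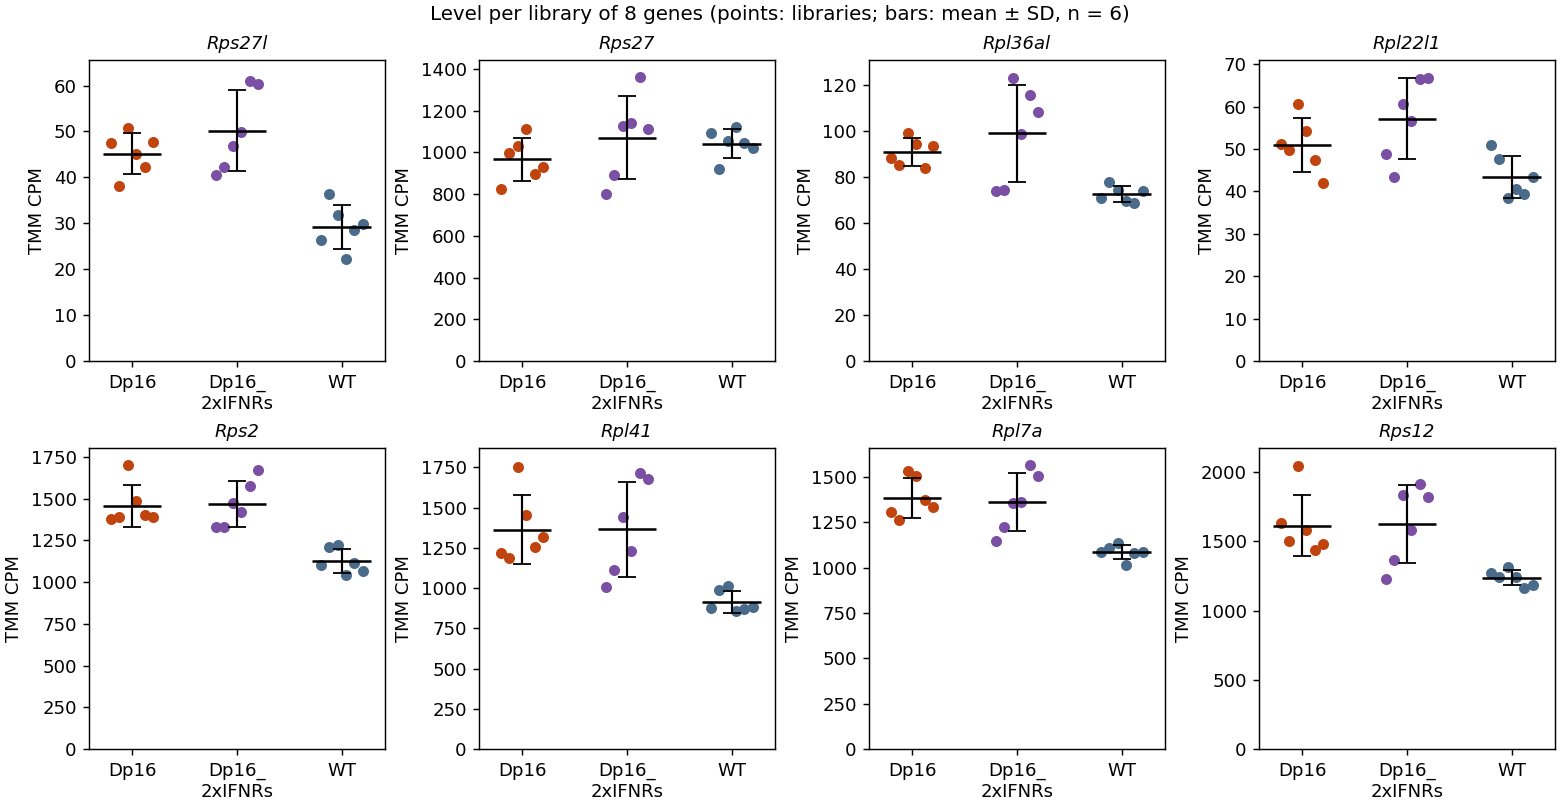
Levels per library (TMM-scaled CPM) of 8 genes in Dp16, Dp16_2xIFNRs and WT; points are libraries and bars are mean ± SD of 6. The Rps27l points of both Dp16 genotypes lie above all WT points, while the Rps27 points of the 3 genotypes overlap.

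Among core genes the smallest p-values in Dp16 belonged to Rps2, Rpl41, Rpl7a and Rps26. Rps2 encodes a small subunit protein near the entry of the mRNA channel. It had 1379, 1397 and 1700.0 TMM-scaled CPM in Dp16, 1328, 1447 and 1673 in Dp16_2xIFNRs and 1045, 1107 and 1221 in WT. No library of the Dp16 genotypes overlapped WT. It rose by 0.37 ± 0.070 in Dp16 (adjusted p = 0.000463, edgeR) and 0.38 ± 0.070 in Dp16_2xIFNRs (adjusted p = 0.000346, edgeR), and by 0.20 and 0.18 with the length offset (adjusted p = 0.00341 and 0.00808, edgeR). Its adjusted p over all alternatives was 2.07e-05 to 0.00545 in Dp16 and 8.28e-06 to 0.00808 in Dp16_2xIFNRs.

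Rpl41 encodes a very short basic peptide of the ribosome. It had 1189, 1286 and 1751 TMM-scaled CPM in Dp16, 1006, 1334 and 1716 in Dp16_2xIFNRs and 856, 877 and 1012 in WT. Dp16 stood clear of WT, and Dp16_2xIFNRs touched it at its lowest library. The log2 fold change was 0.58 ± 0.118 in Dp16 (adjusted p = 0.000918, edgeR) and 0.58 ± 0.118 in Dp16_2xIFNRs (adjusted p = 0.000826, edgeR), 1.49-fold in each. With the length offset it was 0.39 (adjusted p = 0.000640, edgeR) and 0.35 (adjusted p = 0.00166, edgeR), within ranges over all alternatives of 5.73e-05 to 0.00398 in Dp16 and 4.39e-05 to 0.00423 in Dp16_2xIFNRs.

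Rpl7a encodes a large subunit protein of the family that also includes snoRNP proteins. It had 1263, 1355 and 1535 TMM-scaled CPM in Dp16, 1148, 1360 and 1567 in Dp16_2xIFNRs and 1015, 1086 and 1134 in WT, with no overlap. It rose by 0.35 ± 0.075 in Dp16 (adjusted p = 0.00126, edgeR) and 0.33 ± 0.075 in Dp16_2xIFNRs (adjusted p = 0.00213, edgeR), and with the length offset it had 0.16 (adjusted p = 0.0184, edgeR) and 0.10 (adjusted p = 0.163, edgeR). Rps12, a small subunit protein known in Drosophila for its part in cell competition, had 1438, 1542 and 2044 TMM-scaled CPM in Dp16, 1229, 1703 and 1910 in Dp16_2xIFNRs and 1164, 1243 and 1317 in WT. Only Dp16_2xIFNRs overlapped WT. It rose by 0.38 ± 0.0998 in Dp16 (adjusted p = 0.00610, edgeR) and 0.39 ± 0.0998 in Dp16_2xIFNRs (adjusted p = 0.00466, edgeR), and with the length offset it had 0.20 (adjusted p = 0.0193, edgeR) and 0.17 (adjusted p = 0.0503, edgeR).

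Rps26 encodes a small subunit protein at the exit side of the mRNA channel. It had 1102, 1191 and 1385 TMM-scaled CPM in Dp16, 883, 1224 and 1347 in Dp16_2xIFNRs and 914, 949 and 1033 in WT. Dp16 was above WT throughout, whereas Dp16_2xIFNRs had the lowest library of all. Its log2 fold change was 0.35 ± 0.091 in Dp16 (adjusted p = 0.00530, edgeR) and 0.30 ± 0.091 in Dp16_2xIFNRs (adjusted p = 0.0153, edgeR), and with the length offset 0.17 (adjusted p = 0.0356, edgeR) and 0.07 (adjusted p = 0.429, edgeR).

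By subunit, 14 of 46 large (30.4%) and 5 of 31 small core genes (16.1%) were called higher in Dp16, beside 16.6% of all genes. In Dp16_2xIFNRs it was 26 of 46 (56.5%) and 9 of 31 (29.0%), beside 17.3% of all genes. The median log2 fold changes of large and small core genes lay close together. They were 0.19 and 0.18 in Dp16 and 0.23 and 0.22 in Dp16_2xIFNRs, and the difference between subunits was not tested. The P stalk genes had 2 of 3 called higher in Dp16 and 3 of 3 in Dp16_2xIFNRs. Rplp0, the base of the stalk, rose by 0.25 (adjusted p = 0.0256, edgeR) and 0.29 (adjusted p = 0.0101, edgeR), and Rplp1 by 0.22 (adjusted p = 0.0475, edgeR) and 0.24 (adjusted p = 0.0319, edgeR). Rplp2 had 0.24 (adjusted p = 0.0674, edgeR) and 0.26 (adjusted p = 0.0423, edgeR). With the length offset none of the stalk genes was called.

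Rpl5 and Rpl11 bind 5S rRNA and, when ribosome assembly fails, the p53 regulator Mdm2. Rpl11 had log2 fold changes of 0.20 in Dp16 (adjusted p = 0.0559, edgeR) and 0.21 in Dp16_2xIFNRs (adjusted p = 0.0414, edgeR), and in Dp16_2xIFNRs -0.02 with the length offset. Rpl5 had 0.11 in both, with neither called. Rps27a, made as a fusion with ubiquitin, had 0.21 in Dp16 (adjusted p = 0.149, edgeR) and 0.35 in Dp16_2xIFNRs (adjusted p = 0.0135, edgeR), where it was 0.12 with the length offset (adjusted p = 0.220, edgeR).

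Of 26 genes with variants reported in human Diamond-Blackfan anaemia, 6 were called higher in Dp16 (23.1%) and 9 in Dp16_2xIFNRs (34.6%), beside 16.6% and 17.3% of all genes, with medians of 0.18 and 0.22, and 0 were lower. Among them Rpl26, Rpl27, Rpl31, Rpl35 and Rps26 were called in both genotypes, and Rpl11, Rpl15 and Rpl35a in Dp16_2xIFNRs and not in Dp16. Under the length offset Rps26 was called higher and Rps27 lower in Dp16, and Rpl15, Rpl18, Rps15a and Rps20 higher in Dp16_2xIFNRs. In the fit without the offset Rps27 was not called in Dp16, nor Rpl18, Rps15a and Rps20 in Dp16_2xIFNRs. Rps19, mutated most often in the human disease, had log2 fold changes of 0.10 in Dp16 and 0.16 in Dp16_2xIFNRs, and neither passed (adjusted p = 0.425 and 0.163, edgeR). On the X chromosome 1 of 4 members was called in Dp16 and 2 of 4 in Dp16_2xIFNRs, and Rpl10 and Rps4x, at 0.04 and 0.09 in Dp16, had -0.15 and -0.10 with the length offset. Rps29 and Rpl3 were not called in either comparison, with log2 fold changes of 0.10 and 0.15 in Dp16 and 0.17 and 0.19 in Dp16_2xIFNRs. Rpl39 had 0.17 in Dp16 and 0.24 in Dp16_2xIFNRs (adjusted p = 0.0366, edgeR), where it was 0.01 with the length offset (adjusted p = 0.921, edgeR).

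No member lies in the extra interval, whose outer genes span chr16:75540514-97962622 in GENCODE vM21 on GRCm38. Of the chromosome 16 members, Rpl24 had 0.26 in Dp16 (adjusted p = 0.103, edgeR) and rose by 0.43 in Dp16_2xIFNRs (adjusted p = 0.00757, edgeR). Rpl35a had 0.21 (adjusted p = 0.149, edgeR) and 0.29 (adjusted p = 0.0381, edgeR). Both lie outside the interval, and with the length offset neither was called in Dp16_2xIFNRs, at 0.21 for Rpl24 (adjusted p = 0.0672, edgeR) and 0.06 for Rpl35a (adjusted p = 0.622, edgeR).

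Among the copies, Rpl10-ps3 had 7.08, 8.15 and 11.5 TMM-scaled CPM in Dp16, 5.52, 6.22 and 10.5 in Dp16_2xIFNRs and 4.41, 5.08 and 6.51 in WT. Dp16 lay above WT, and Dp16_2xIFNRs overlapped it. It rose by 0.72 ± 0.176 in Dp16 (adjusted p = 0.00352, edgeR) and 0.48 ± 0.176 in Dp16_2xIFNRs (adjusted p = 0.0411, edgeR), while its source gene Rpl10 had 0.04 and 0.14. Rpl10-ps3 had 0.54 with the length offset in Dp16 (adjusted p = 0.0178, edgeR) and 0.25 in Dp16_2xIFNRs (adjusted p = 0.299, edgeR). Rpl9-ps6 had 0.45 in Dp16 (adjusted p = 0.0377, edgeR) and 0.26 with the length offset (adjusted p = 0.151, edgeR), and Rps18-ps5 and Rpl36a-ps1 were not called in either comparison. Rps27rt had 0.01 and -0.01. Reads of near-identical copies can be split in ways the deposited counts do not show, so these values are uncertain. Another 304 genes are named as ribosomal protein pseudogenes; 136 were tested, and 118 and 119 of these had a positive log2 fold change in Dp16 and Dp16_2xIFNRs, with medians of 0.19 and 0.25. Of the 136, 6 and 4 were called higher, beside 16.6% and 17.3% of all genes, and for none of 77 core genes did they reach 10% of the core gene's CPM. Rps19bp1 had 0.14 in Dp16 and 0.32 in Dp16_2xIFNRs, with neither called.

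Between Dp16_2xIFNRs and Dp16 0 of 87 genes were called higher and 0 lower by edgeR, beside 0% and 0.0215% of all genes, and 0 had an unadjusted p below 0.05. DESeq2 also called none. The median difference was 0.04 and the range -0.24 to 0.18. For the 77 core genes the 95% intervals of the difference ran from -0.24 at the lowest to 0.42 at the highest, so that none reached 0.5. Only the low-level Rpl10-ps3 and Rpl36a-ps1 had intervals past 0.5 in size. For Rps27l the difference was 0.15, with an interval of -0.08 to 0.38. A p that misses the threshold does not show equal levels.

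Between females and males 0 of 87 were called higher and 0 lower by edgeR, beside 0.204% and 0.0537% of all genes, and 0 had an unadjusted p below 0.05, with none called by DESeq2. The median was 0.02 and the range -0.11 to 0.18. A test of whether the genotype effect differed between females and males called 0 members in each of 3 comparisons by edgeR, with 1 member at an unadjusted p below 0.05, between Dp16_2xIFNRs and Dp16.

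Genes that build and serve the ribosome were read from lists chosen with earlier results known. The counts of each list stand beside 16.6% of all genes called higher and 13.2% lower in Dp16. In Dp16_2xIFNRs these shares of all genes were 17.3% and 14.2%. Mitochondrial ribosomal proteins, which form the separate ribosome inside mitochondria, were called higher in 61 of 77 in Dp16 and 66 of 77 in Dp16_2xIFNRs and lower in none, with medians of 0.34 and 0.43. Without Mrpl39 and Mrps6, which lie in the extra interval, it was 59 and 64 of 75. With the length offset the cytosolic genes had medians of 0.03 and 0.03. The mitochondrial ones had 48 and 49 of 77 called higher with medians of 0.29 and 0.31. Other genes of up to 1000 bases still had 103 and 102 of 198 called higher with the offset, at medians of 0.22 and 0.23. Without it they had 142 and 153 of 198. Mrpl39, which has an extra copy in both genotypes, rose by 0.87 ± 0.070 in Dp16 (adjusted p = 7.38e-08, edgeR), and Mrpl34, outside the interval, by 0.55 ± 0.078 (adjusted p = 4.33e-05, edgeR).

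Translation factors with TOP mRNAs were called higher in 12 of 23 in Dp16 and lower in 0, and higher in 10 and lower in 1 in Dp16_2xIFNRs, with medians of 0.21 and 0.17. Eef1d, a subunit of the exchange factor that recharges the elongation factor eEF1A, rose by 0.55 in Dp16 and 0.58 in Dp16_2xIFNRs, and Eif3d, a subunit of an initiation factor, by 0.29 in each. Eef2, which moves the ribosome along the mRNA, fell by 0.19 in Dp16_2xIFNRs. Hosts of small nucleolar RNAs, which are also TOP genes, were higher in 6 of 9 in each genotype, Snhg3 by 0.69 and Snhg1 by 0.47 in Dp16. Fau and Rack1, which encode small subunit proteins, were not called in either genotype, with a log2 fold change of 0.16 for Rack1 in Dp16.

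Ribosome assembly factors moved in both directions, 19 of 48 higher and 5 lower in Dp16 and 19 higher and 4 lower in Dp16_2xIFNRs. Nhp2, a protein of the H/ACA particles that modify rRNA, rose by 0.65 in Dp16 and Bysl, a small subunit assembly factor, by 0.45. The 5 lower in Dp16 were Heatr1, Mdn1, Nol6, Tcof1 and Utp20, with -0.56 for Mdn1, a very large ATPase of large subunit assembly. RNA polymerase I genes had 7 of 21 higher and 2 lower in Dp16 and 6 and 1 in Dp16_2xIFNRs, with Polr2f, a subunit shared by nuclear RNA polymerases, at 0.55 and Polr1d at 0.40 in Dp16. Targets of p53 had 2 of 16 higher (12.5%, beside 16.6% of all genes) and 1 lower in Dp16. In Dp16_2xIFNRs 1 was higher (6.25%, beside 17.3% of all genes) and 0 lower. Among the p53 targets Cdkn1a, which arrests the cell cycle, rose by 0.36 in Dp16 (adjusted p = 0.0324, edgeR). Plk2 fell by 0.83 in Dp16 (adjusted p = 0.00129, edgeR). Rps27l was not on this list.

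**Figure D5:**
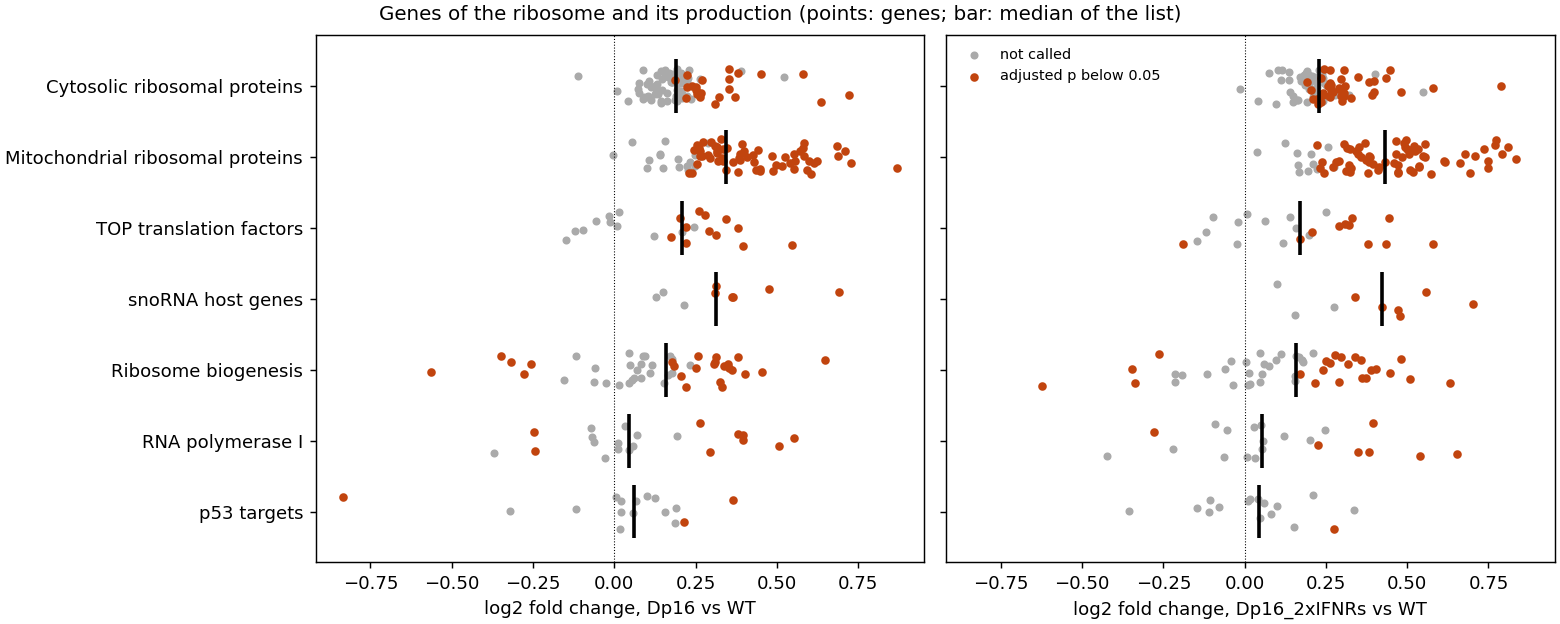
Each point is the log2 fold change of a gene in 7 lists, Dp16 against WT on the left and Dp16_2xIFNRs against WT on the right; red marks an adjusted p below 0.05 and bars are list medians. Mitochondrial ribosomal proteins have the highest median of the lists in Dp16_2xIFNRs (0.43) and p53 targets and RNA polymerase I genes the lowest in each panel. With the length offset the medians of the cytosolic genes became 0.03 and those of the mitochondrial genes 0.29 and 0.31. Other genes of up to 1000 bases, not plotted, then had medians of 0.22 and 0.23.

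The cell makeup of the spleens moved with genotype. All 15 erythroid markers were higher in Dp16 and in Dp16_2xIFNRs, with medians of 1.66 and 1.68 and summed levels of 23662 to 43546 TMM-scaled CPM in Dp16, 21393 to 45269 in Dp16_2xIFNRs and 5855 to 21266 in WT. Of neutrophil markers 12 of 14 and of cell cycle genes 16 of 16 were higher in both, while 12 of 13 B cell markers were lower. Of the other marker lists, 2 of 12 T cell markers were lower in Dp16 and 1 in Dp16_2xIFNRs. Red pulp macrophage markers were higher in 4 of 9 in both genotypes, and plasma cell markers had 1 of 8 higher and 1 lower in both. Of all genes 16.6% were called higher and 13.2% lower in Dp16, and 17.3% and 14.2% in Dp16_2xIFNRs. All erythroid, lymphoid and macrophage markers were detected, as the tissue label implies, and of 11 pancreatic acinar markers 4 were at 0 in every library and 1 was abundant enough to be tested, Cela1, which rose by 0.57 in Dp16 (adjusted p = 0.00386, edgeR) and 0.66 in Dp16_2xIFNRs (adjusted p = 0.00114, edgeR). In bulk tissue, more cells of a type and more RNA per cell cannot be told apart, and the part of these markers in the ribosomal protein values was not tested. Dp16_2xIFNRs replicate 1, with the lowest ribosomal protein share, had 37683 TMM-scaled CPM of erythroid markers, within the range of its group. Dp16 replicate 3 had both the highest ribosomal protein share (8.89%) and the highest erythroid markers (43546 TMM-scaled CPM) of its group. How the 2 measures go together over the libraries was not tested.

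Total counts ran from 33998427 to 53021480 per library. Gm42418, a gene model over ribosomal RNA sequence, took 0.691% to 5.51% of counts. Without the 4 libraries above 4% there were 10 members called higher in Dp16 and 16 in Dp16_2xIFNRs. The share of all genes called without these libraries is not given here. Haemoglobin genes took 1.75% to 3.24% of counts in Dp16, 1.64% to 3.45% in Dp16_2xIFNRs and 0.543% to 1.66% in WT.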

How the data were processed

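Poly(A) RNA of 18 mouse spleen samples was sequenced from strand-specific libraries (Tecan/Nugen Universal Plus mRNA kit, TRIzol extraction, Illumina NovaSeq, paired ends), per the labels' protocols. The authors deposited raw read counts per gene and RPKM. Build GRCm38 and the tools HTSeq 0.6.1, HISAT2 2.1.0, SAMtools 1.5, bcl2fastq and FastQC 0.11.5 are listed in the submitters' processing notes. How strand was set in counting is not given in the sources used here. The deposited RPKM values equalled count over library total and 1 length per gene in all of 11538 genes checked, and that length was used as gene model length.

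The counts were tested with edgeR 4.0.16 (R 4.3.3): filterByExpr, TMM, robust quasi-likelihood, genotype and sex as terms over all 18 libraries, Benjamini-Hochberg over 18634 genes, adjusted p below 0.05. Levels are CPM over TMM-scaled library sizes. Alternatives used DESeq2 1.42.0 and limma 3.58.1. The added length offset is a lowess of span 0.3, per library, of log2 level over log2 gene length, made without the members. Paralog ratios were tested by exact permutation over samples, a test added after seeing the data. The fits were tested on simulated counts. Total counts ran from 33998427 to 53021480; 3 counts, the limit that a count of 0 allows, were 0.0566 to 0.0882 CPM and cover counting error only.

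The genes named are the stalk, 5S rRNA-binding, ubiquitin fusion and paralog genes with their partners, up to 6 called members with the smallest p per comparison and direction, the 3 highest and 3 lowest by RPKM and, from each other list, the 2 with the smallest p in Dp16; genes named as exceptions within a list or as the members of a small count were added after their values were seen. The members, lists and tests were chosen with earlier results of these data known. The name of the deposited count table gives GENCODE vM24; gene positions printed here are from GENCODE vM21 on the same GRCm38, promoters from RefSeq on GRCm38.p6, and 63 of 87 members matched a promoter. Some genes of the lists are not reported here by name.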

Additional observations from a re-analysis of the deposited data

Results flagged for a closer look

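For a named gene, 1 library can lie far from the other 5 of its group, by chance in about 1 in 20 independent groups. The named genes share their libraries, so that rate does not apply to the count here. In 6 of 84 groups of 6 libraries, 1 library lay far from the other 5. In 5 of the 6 it was Dp16 replicate 3: Rps12 had 2044 TMM-scaled CPM there, against 1438 to 1633 in the other Dp16 libraries, Rplp2 had 1986 against 1441 to 1620, Rps2 had 1700.0 against 1379 to 1485, Rps27a had 936.6 against 669 to 740, and Rpl22 had 503 against 376 to 406. The sixth was Rpl39 in Dp16 replicate 4, with 377 TMM-scaled CPM against 301 to 323 in the other Dp16 libraries. Dp16 replicate 3 also had the highest ribosomal protein share of its group (8.89% of counts), the highest summed erythroid markers of its group (43546 TMM-scaled CPM) and 4.41% of counts on Gm42418; their part in these values was not tested. Without Dp16 replicate 3, 11 members were called higher in Dp16, and the share of all genes called in that fit is not given here.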

How the results depend on the processing

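The members called higher, 23 in Dp16 and 40 in Dp16_2xIFNRs against WT, moved with the processing. In the order Dp16 and Dp16_2xIFNRs they were 8 and 14 with upper quartile scaling, 13 and 20 with no filter on low counts, 7 and 11 with limma on log2(RPKM + 0.1), 10 and 16 without the libraries over 4% of counts on Gm42418, 7 and 9 with the length offset, and 35 and 65 at an adjusted p below 0.1. Dp16 had 54 with only the 12 libraries compared, and Dp16_2xIFNRs 71 with limma voom and quality weights. Leaving out 1 library gave 11 to 34 in Dp16 and 14 to 76 in Dp16_2xIFNRs. Calls of lower members appeared only with the length offset, 2 in Dp16. RLE scaling gave 18 and 38, DESeq2 21 and 42, the fit without sex 23 and 42, limma voom with the description codes as a random block, which changes tool and block together, 30 and 53. In that last fit the consensus correlation of samples within a code was 0.165. For Dp16_2xIFNRs against Dp16 and female against male every setting gave 0. The cause of these shifts was not tested. Apart from the length offset, the shares of all genes called in the same fits are not given here. The member counts therefore do not show whether other genes gained or lost calls alike. The WT share of counts was 8.13% without Gm42418 and mitochondrial genes, against 7.78%.

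With the sample number as a replicate block the counts were 20 and 39, and 0 for the other comparisons; same-numbered samples deviated together with a mean correlation of 0.0137 (18 pairs, -0.170 to 0.257), so the numbers do not pair the samples.

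Small fold changes turned sign in 24 of 1836 gene values: with upper quartile scaling Rpl10 in Dp16 (-0.021) and Rps27 in Dp16_2xIFNRs (-0.021); on RPKM, where the median of all genes was -0.13 in Dp16 and -0.12 in Dp16_2xIFNRs, Rpl10 (-0.078), Rpl5 (-0.011), Rps29 (-0.018) and Rps4x (-0.031) in Dp16 and Rpl5 (-0.011), Rps27 (-0.095) and Rps4x (-0.00571) in Dp16_2xIFNRs. Rps27 in Dp16_2xIFNRs also became -0.000699 without the Gm42418-rich libraries and ran from -0.034 to 0.121 over the omissions of 1 library, negative without Dp16_2xIFNRs replicate 5. With the length offset Rpl10 (-0.15), Rpl39 (-0.00112), Rpl7 (-0.040), Rps19bp1 (-0.047), Rps29 (-0.041) and Rps4x (-0.10) turned in Dp16, and Rpl10 (-0.089), Rpl11 (-0.020), Rpl36a-ps1 (-0.050), Rpl7 (-0.027), Rps27 (-0.17), Rps29 (-0.019) and Rps4x (-0.11) in Dp16_2xIFNRs.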

Other observations

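Rpl39l, a paralog of the large subunit gene Rpl39 that in mice is known mainly from the testis, stood below the level limit of the ribosomal protein genes described above and was looked at after its values were seen. It had a lowest, median and highest level of 0.257, 1.30 and 1.91 TMM-scaled CPM in Dp16, 0, 0.604 and 3.71 in Dp16_2xIFNRs and 0.0995, 0.220 and 0.310 in WT. Most libraries of the Dp16 genotypes were above WT, but both groups overlapped WT at their low end, and the lowest libraries were close to the limit that a count of 0 allows. The log2 fold change was 2.54 in Dp16 (adjusted p = 0.0254, edgeR) and 2.43 in Dp16_2xIFNRs (adjusted p = 0.0276, edgeR). The call in Dp16 was lost without WT replicate 4, 5 or 6, with an adjusted p of 0.00490 to 0.0627 over the 18 omissions of 1 library (edgeR). The call in Dp16_2xIFNRs was lost without any of the same 3 or Dp16_2xIFNRs replicate 3 or 4, with log2 fold changes of 1.31 to 2.70 and an adjusted p of 0.00477 to 0.188 (edgeR). With the 4 Gm42418-rich libraries left out neither was called (adjusted p = 0.137 in Dp16 and 0.0793 in Dp16_2xIFNRs, edgeR). In Dp16_2xIFNRs limma, on counts or on RPKM, the replicate block, the unfiltered fit and the length offset also did not call it.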
